A study of Drosophila melanogaster with 4 samples.

Results

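Actin, myosin, tubulin and motor genes were followed in adult male fruit flies after a cold shock. The genes were picked by symbol, from a list of prefixes and names. It covered actins, Arp2/3 subunits, myosin light chains, troponin C, tubulins, kinesins, dyneins and their partners. That list was drawn up with earlier results of these data known. Of 6793 named genes on the array design used, 35 were members. The RefSeq table of the Release 6 assembly held 78 genes whose symbols fit the same rule. Of the 18 genes the rule named in full, 7 were measured, namely Tm2, Klc, Actn, Fim, chic, flr and Prm. The other 11, which include the muscle myosin heavy chain gene Mhc, the non-muscle myosin heavy chain gene zip and the filamin gene cher, had no spot with a single symbol on this design and were not analysed there. A gene was measured by 2 spots for 30 members and by 4 spots for 5 members.

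The flies were whole adult males of Drosophila melanogaster, strain dp cn bw cl, aged 6 to 7 days after eclosion. The strain's marker alleles were carried by treated and control flies alike. Treated flies spent 2 h at 0 ± 0.5 °C and recovered for 30 min at 25 °C, while co-reared control flies stayed at 25 °C. Each of 3 cDNA arrays of the 12k design compared 1 independent biological pair, with cold-shocked RNA in Cy5 and untreated RNA in Cy3, and 1 pilot array of the 7k design had the dyes reversed.

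Actin filaments and microtubules are the main fibres of the cytoskeleton. In the sarcomere of muscle, myosin pulls on actin filaments when calcium binds troponin, while in all cells actin shapes the cortex and microtubules carry the kinesin and dynein motors. Low temperature is known to depolymerise microtubules and to affect actin filaments in many animals, and chilled insects lose muscle function until they recover from chill coma. Transcript levels, the quantity compared here, say nothing of the polymer itself.

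Every value is a log2 ratio of 1 array channel over the other, as the authors deposited it, averaged over the spots of a gene. A value above 0 is likely a higher level in cold-shocked flies, whose RNA carried Cy5 and sat in channel 2 on these arrays, but no label states the direction. The logarithm was taken as base 2, which no label states, because the values reached −14.57 while the natural log of a 16-bit scanner's full range is 11.09. All 3 arrays had the same dye orientation, so a dye effect and the treatment cannot be told apart. The medians over all spots were −0.13, 0.03 and 0.03 on arrays 1 to 3, and the SDs ran from 0.457 to 0.729. Across the 35 members arrays 1 and 2 correlated at a Pearson's r of −0.0817, arrays 1 and 3 at 0.0281 and arrays 2 and 3 at 0.133, beside 0.0878, 0.0983 and 0.0782 across all named genes. These correlations describe genes that share an array and are no test. Levels cannot be read from ratios, so neither the presence of a transcript nor the makeup of the tissue could be checked. Fewer cells of a type and less RNA per cell cannot be told apart in whole flies.

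For no cytoskeleton or motor gene was a difference between cold-shocked and untreated males larger than the spread between arrays by the test used. Of the 35 members 0 passed limma's moderated test at an adjusted p of 0.05, and 0 were under an unadjusted p of 0.05. Over all 19325 features 0% passed as well, and 4.78% were under that unadjusted p, or 3.49% of the named genes. The members' limma adjusted p ran from 0.853 to 0.995. Their mean log2 ratios lay between −0.32 for TpnC4 and 0.49 for Mlc2, so that every mean was below a fold of 1.5, and 17 means were above 0 and 18 below. Among all named genes 6.42% had a mean past that fold. The median over the members was −0.0062, against −0.0477 over all named genes.

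The intervals describe the precision of the mean ratios, in which a dye effect and the treatment cannot be told apart. They therefore do not bound a change due to the treatment alone. The 95% interval of the moderated mean, not adjusted for the number of genes, lay within a 2-fold change in either direction for 32 of 35 members, or 91.4%, and for 79.9% of all named genes. The half-width of the interval had a median of 0.572 among the members, the same as among all named genes. The exceptions were Mlc2, whose interval reached 1.13, Klc, whose interval reached −1.01, and Klp67A, whose upper bound lay at 1.00.

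**Figure D1:**
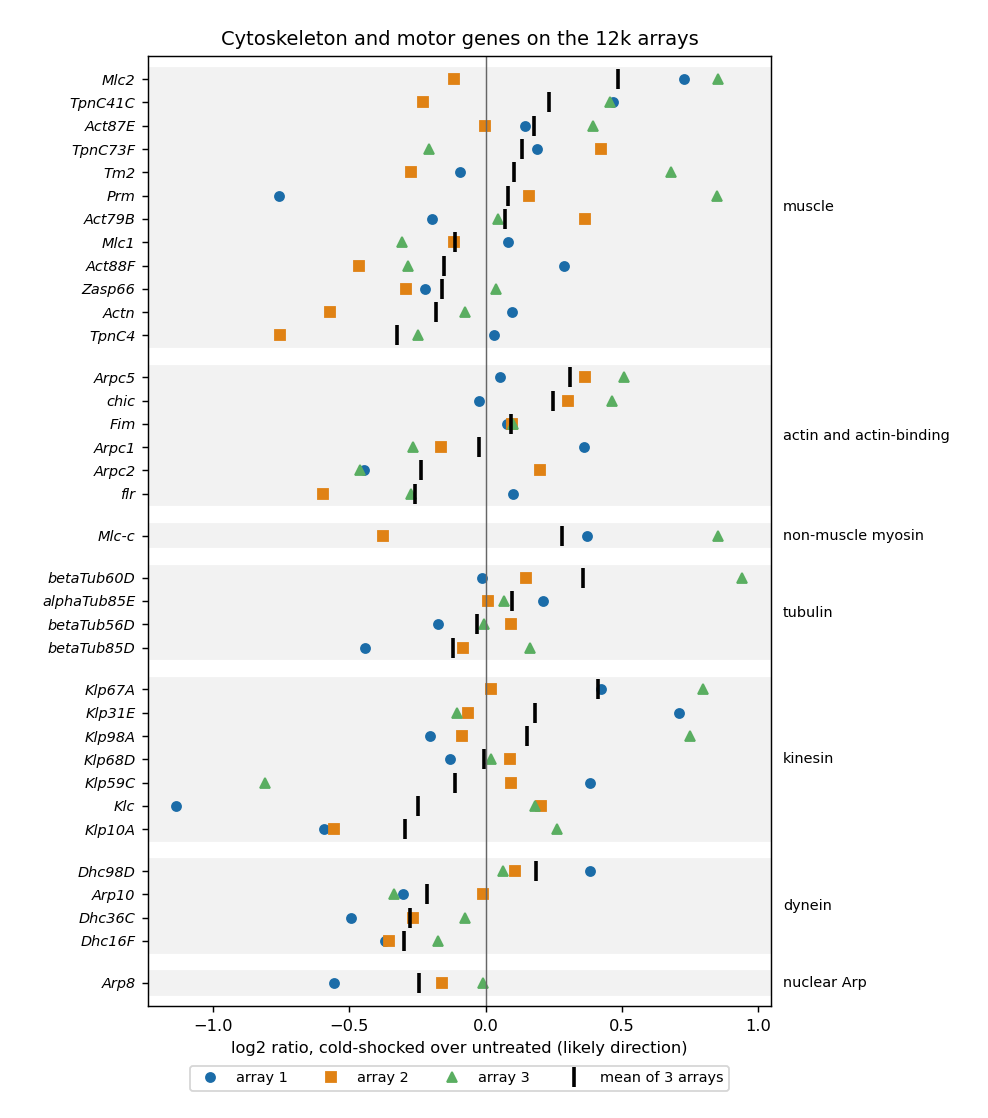
Log2 ratio (horizontal axis) of each of the 35 genes, grouped by role, on each of the 3 arrays, with black ticks for their means. Most genes have points on both sides of 0, and all means lie between −0.32 and 0.49.

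Of the members, 5 were above 0 on all 3 arrays and 4 were below 0 on all 3, where 12.5% of all named genes were above on all 3 and 16.9% below. The share with one sign on all arrays was 25.7% of the members and 29.4% of the named genes. The higher ones were the Arp2/3 subunit gene Arpc5, the actin-bundling gene Fim, the tubulin gene alphaTub85E, the kinesin gene Klp67A and the dynein gene Dhc98D. The lower ones were Dhc16F, Dhc36C, Arp10 and Arp8. These are signs of averages over spots, and within some arrays the spots of each of these genes lay on both sides of 0. A fold of 1.5 with the same sign was exceeded on every array by 0 members and by 0.221% of the named genes.

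Muscle genes, 12 in number, were divided in direction. Their means were above 0 for 7 and below for 5, with a median of 0.08. Of the 12, 0 had one sign on all 3 arrays, against 29.4% of the named genes. With the local median of spots with nearby numbers subtracted, 1 of the 12 had one sign, against 30.9% of the named genes. Mlc2, which encodes the regulatory light chain of muscle myosin, stood at 0.73, −0.12 and 0.85 on arrays 1 to 3. It was high on arrays 1 and 3 and close to 0 on array 2. Its mean of 0.49 ± 0.53 (SD, n = 3), or 1.40-fold, was the highest of the members and ranked 183 from the top among the 6793 named genes. The limma adjusted p was 0.853, and the 95% interval ran from −0.16 to 1.13. The spots of Mlc2, which had consecutive spot numbers, differed by at most 0.16 on any array. The gap between array 2 and the others was thus larger than the gap between these spots. Without array 2, Mlc2 had a mean of 0.79, and without array 3 one of 0.31.

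Mlc1, which encodes the essential light chain of the same myosin, stood at 0.08, −0.11 and −0.31. Its values surrounded 0, with a mean of −0.11 ± 0.19 (SD, n = 3), and did not follow those of Mlc2 across the arrays.

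Troponin C is the calcium sensor of the thin filament, and 3 of its genes were measured. TpnC41C stood at 0.47, −0.23 and 0.46, with a mean of 0.23 ± 0.40 (SD, n = 3). It was above 0 on the same arrays as Mlc2. TpnC4, the troponin C that is characteristic of the indirect flight muscles, stood at 0.03, −0.75 and −0.25, with the lowest mean of the members at −0.32 ± 0.40 (SD, n = 3) and an adjusted p of 0.863 by limma. TpnC73F had a mean of 0.13 and differed in sign between arrays. The 3 troponin C genes therefore had means on both sides of 0, and the interval of each held 0, as did that of every other member.

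The 3 muscle actin genes gave small means. Act88F, the actin of the indirect flight muscles, stood at 0.29, −0.46 and −0.29 with a mean of −0.15. Act79B and Act87E, actins of other muscles, had means of 0.07 and 0.18. Actin genes of the fly are so alike in their coding sequence that cDNA spots may not separate them, and values of single actin genes are uncertain for that reason, as are those of the tubulin genes.

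The remaining muscle genes belong to the thick filament, the thin filament and the Z-disc. The tropomyosin gene Tm2 had a mean of 0.11 that rested on array 3, at 0.68, while arrays 1 and 2 were below 0. The alpha-actinin gene Actn and the gene of the Z-disc protein Zasp66 had means of −0.18 and −0.16. Prm, which encodes paramyosin of the thick filament core, stood at −0.76, 0.16 and 0.85, the largest spread among the members with an SD of 0.81 around a mean of 0.08.

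The printed spots of Prm bear on that spread. Spots of a gene came as pairs with consecutive spot numbers, called printed pairs here, and Prm had 2 such pairs with distant numbers. Their places on the array were not checked. On array 1 the first pair averaged 0.14 and the second −1.66, a gap far larger than the gap within either pair. On array 2 the order turned, with −0.40 and 0.72, and on array 3 the pairs stood at 1.13 and 0.57. Averaged over the arrays the pairs of Prm stood at 0.29 and −0.13. The same averages were 0.08 and 0.28 for Act87E, −0.32 and −0.00073 for Zasp66, −0.11 and 0.30 for Fim, and 0.38 and 0.12 for the profilin gene chic.

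**Figure D2:**
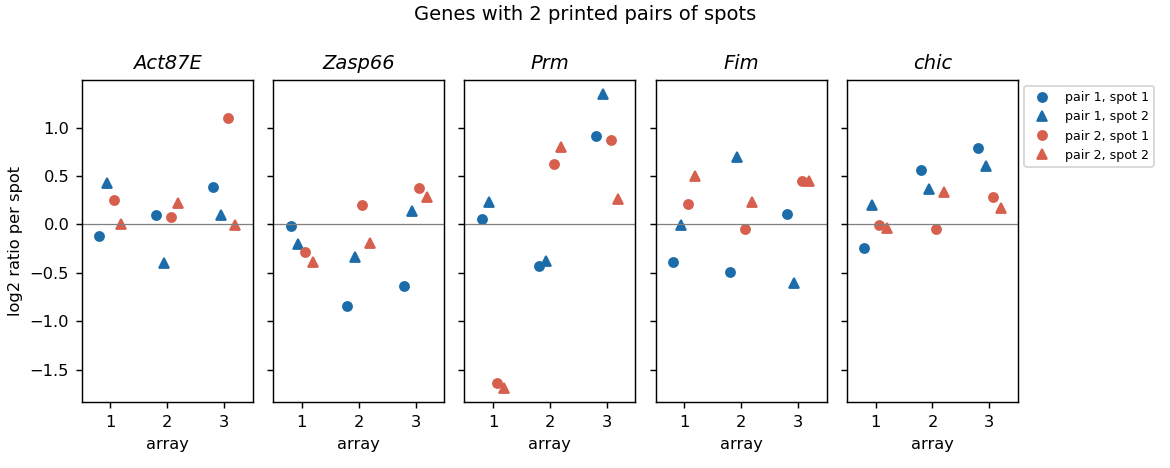
Log2 ratio of each spot (vertical axis) on each array for the 5 genes with 2 printed pairs of spots, with colour for the pair and shape for the spot. On array 1 the second pair of Prm averages −1.66 while the first averages 0.14, and the widest gap between pairs of the other genes on that array is smaller.

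Outside muscle, the actin machinery was represented by 6 genes, 3 with means above 0 and 3 below. The Arp2/3 complex nucleates branched actin filaments, and its subunit genes Arpc1, Arpc2 and Arpc5 had means of −0.0226, −0.24 and 0.31. Arpc5 stood at 0.05, 0.36 and 0.51. As an average over its spots it was above 0 on every array, with an adjusted p of 0.862 by limma and an interval from −0.24 to 0.85. The spots stood at 0.21 and −0.11 on array 1 and at 1.01 and 0.0014 on array 3. Members of this 1 complex thus had means of either sign.

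The gene chic, whose product profilin delivers actin monomers to growing filaments, stood at −0.0231, 0.30 and 0.46, with a mean of 0.25 ± 0.25 (SD, n = 3). It was close to 0 on array 1 and higher on the other arrays. The gene flr encodes a protein that acts with cofilin to take filaments apart, and stood at 0.10, −0.60 and −0.27 with a mean of −0.26 ± 0.35 (SD, n = 3). The intervals of both genes held 0. Fim, which encodes the bundling protein fimbrin, had array values of 0.08, 0.10 and 0.10. This narrow range came from averaging 4 spots that differed by up to 1.19 within an array, so the gene's SD of 0.011 understates its error, and the moderated interval ran from −0.42 to 0.61.

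Mlc-c, which encodes the essential light chain of cytoplasmic myosin, stood at 0.37, −0.38 and 0.85. As with Mlc2, arrays 1 and 3 were above 0 and array 2 below. The mean was 0.28 ± 0.62 (SD, n = 3), with a limma adjusted p of 0.881, and it came to −0.0028 without array 3. This order of signs, above 0 on arrays 1 and 3 and below on array 2, was shared by 4 of the 35 members, or 11.4%, and by 8.74% of all named genes. Mlc-c and Mlc2 were set side by side after their values were seen.

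Tubulins form the microtubule wall, and 4 genes were measured. The gene betaTub60D stood at −0.0143, 0.15 and 0.94, so its mean of 0.36 ± 0.51 (SD, n = 3) rested on array 3 and was 0.07 without it. Its limma adjusted p was 0.862. The gene betaTub85D, which encodes the beta-tubulin of the male germline and the sperm axoneme, stood at −0.44, −0.0822 and 0.16 with a mean of −0.12 ± 0.31 (SD, n = 3). Its values ran across 0. The widely expressed betaTub56D and the alpha-tubulin gene alphaTub85E had means of −0.0295 and 0.10, with SDs of 0.13 and 0.10. The spots of alphaTub85E had opposite signs on each array, at −0.0201 and 0.44, −0.15 and 0.17, and −0.22 and 0.36.

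Kinesins move along microtubules or take apart their ends, and 7 of their genes were measured, 3 with means above 0 and 4 below. Klp67A, a kinesin-8 that shortens microtubules in the spindle, stood at 0.42, 0.02 and 0.80. It was clearly above 0 on arrays 1 and 3, and its mean of 0.41 ± 0.39 (SD, n = 3), or 1.33-fold, was second to that of Mlc2, with a limma adjusted p of 0.853. Klp10A, which takes apart microtubule ends, stood at −0.59, −0.56 and 0.26, with a mean of −0.30 ± 0.48 (SD, n = 3). Its spots differed by 1.04 on array 2, with 1 spot near 0 and the other at −1.08. Klc, the light chain of the transport motor kinesin-1, stood at −1.13, 0.21 and 0.18. Array 1 alone put its mean at −0.25 ± 0.77 (SD, n = 3), which became 0.19 without that array.

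The 4 remaining kinesin genes had means of −0.11 for Klp59C, −0.0062 for Klp68D, 0.15 for Klp98A and 0.18 for Klp31E. For both Klp59C and Klp31E a single spot set the value on 1 array. On array 3 the spots of Klp59C were at −2.02 and 0.40, and on array 1 those of Klp31E were at 1.81 and −0.39. Klp68D, a kinesin-2 subunit, had the closest agreement between its spots, which differed by at most 0.13.

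Dynein heavy chains and dynactin gave 4 members, and each had one sign on all 3 arrays, where 29.4% of all named genes did. Dhc16F, an axonemal heavy chain by its sequence, stood at −0.37, −0.35 and −0.17, with a mean of −0.30 ± 0.11 (SD, n = 3) and a limma adjusted p of 0.862. Dhc36C, of the same kind, stood at −0.49, −0.27 and −0.0749, with a mean of −0.28 ± 0.21 (SD, n = 3). As averages over spots both were below 0 throughout, while Dhc98D was above 0 throughout, at 0.38, 0.11 and 0.07. On array 3, however, spots lay on both sides of 0 for Dhc16F, at −0.40 and 0.05, and for Dhc36C, at 0.23 and −0.38. The mean of Dhc98D was 0.19 ± 0.17 (SD, n = 3). Its spots had opposite signs on each array, at −0.10 and 0.87 on array 1, −0.0753 and 0.29 on array 2 and 0.47 and −0.34 on array 3. The intervals ran from −0.82 to 0.22 for Dhc16F, from −0.82 to 0.26 for Dhc36C and from −0.35 to 0.72 for Dhc98D.

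Axonemal dyneins drive the sperm tail, so these genes were set beside other testis genes. Of 10 listed testis markers 4 were measured, with a median of 0.06. Mst87F, Mst98Cb and dj, all of the male germline, had means of 0.14, −0.0259 and 0.32, and the testis proteasome gene Prosalpha4T1 one of −0.62. The axonemal dynein genes and the testis markers thus both lay on either side of 0, and 0 of them passed limma's test. Female markers, of which 8 of 8 listed were measured, had medians of −1.33, −0.63 and −0.24 on arrays 1 to 3. The list was uneven, with means of −2.64 for Yp1 and −2.38 for dhd but −0.22 for yl, −0.18 for otu and 0.16 for swa. On array 1 otu and swa were above 0. The part of female transcripts in the values of the cytoskeleton genes was not tested.

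The dynactin subunit gene Arp10 stood at −0.30, −0.0084 and −0.33, with a mean of −0.22 ± 0.18 (SD, n = 3). Its spots were 2.18 apart on array 3, which exceeds any difference between its array values. With local medians subtracted it stood at 0.16, −0.0096 and −0.55 and no longer had one sign. Arp8, an actin-related protein of chromatin remodelling complexes and no part of the cytoskeleton, stood at −0.56, −0.16 and −0.0107, with a mean of −0.24 ± 0.28 (SD, n = 3). It was counted among the members by its symbol and left out of the comparison between muscle and general cytoskeleton.

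Muscle and general cytoskeleton genes did not part in a repeatable direction. The median of the 12 muscle genes was 0.09, −0.17 and 0.04 on arrays 1 to 3, and that of the 22 general cytoskeleton genes was −0.0187, 0.01 and 0.07. Muscle minus general was therefore 0.11, −0.19 and −0.0247. The difference was positive on array 1 and negative on the others, and the classes overlapped widely on each array. Taken from each gene's mean over the arrays, the difference of medians was 0.09, and it became −0.0406 without array 3. Medians do not average, so this value is not the mean of the 3 array differences, whose SD was 0.149. With 3 arrays and classes made of genes that share them, no test was made.

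**Figure D3:**
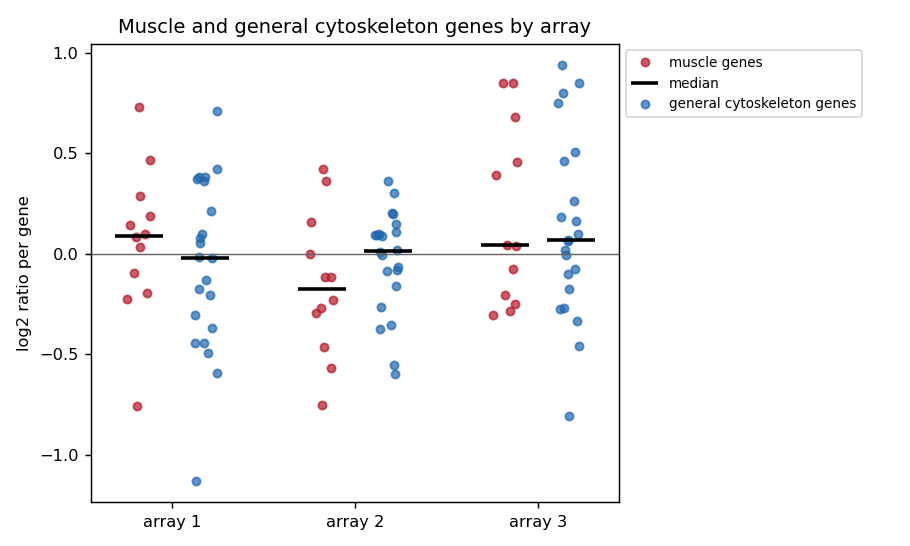
Log2 ratio of each gene (vertical axis) on each array for the 12 muscle genes and the 22 general cytoskeleton genes, with black bars for the medians. The bars differ by 0.11, −0.19 and −0.0247 on arrays 1 to 3, and the clouds of points overlap on each array.

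On array 2 only 3 of 12 muscle genes were above 0, whereas 52.1% of all named genes were. On array 1 the count was 8 of 12, against 37.9% of the named genes, and on array 3 it was 7 of 12, against 51.3%. The general cytoskeleton genes were above 0 in 10, 12 and 13 of 22 cases. Of them 8, or 36.4%, had one sign on all 3 arrays, against 29.4% of the named genes. The shares of muscle genes above 0 thus lay above that of all named genes on arrays 1 and 3 and below it on array 2.

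The 40 printed pairs of the members differed between their spots by a median of 0.306, 0.348 and 0.458 on arrays 1 to 3, against 0.321, 0.341 and 0.394 for the 7558 named pairs. A printed pair was over 1 apart on at least 1 array for 8 of the 40 member pairs and 1882 of the 7558 named pairs. In 10 of 35 members, spots of the gene were over 1 apart on at least 1 array. Leaving out 1 array turned the sign of the mean for 15 of 35 members. These counts per gene have no counterpart over all named genes here, so they are not read as particular to the members. Ratios on an array also shifted along the order of spot numbers. Subtraction of the local median of spots with nearby numbers moved Mlc2 from 0.85 to 1.42 on array 3. This subtraction moved the mean of Mlc2 to 0.68 and that of betaTub60D to 0.49. It moved Arpc2 from −0.24 to −0.0412, TpnC4 from −0.32 to −0.19 and betaTub85D from −0.12 to 0.017.

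**Figure D4:**
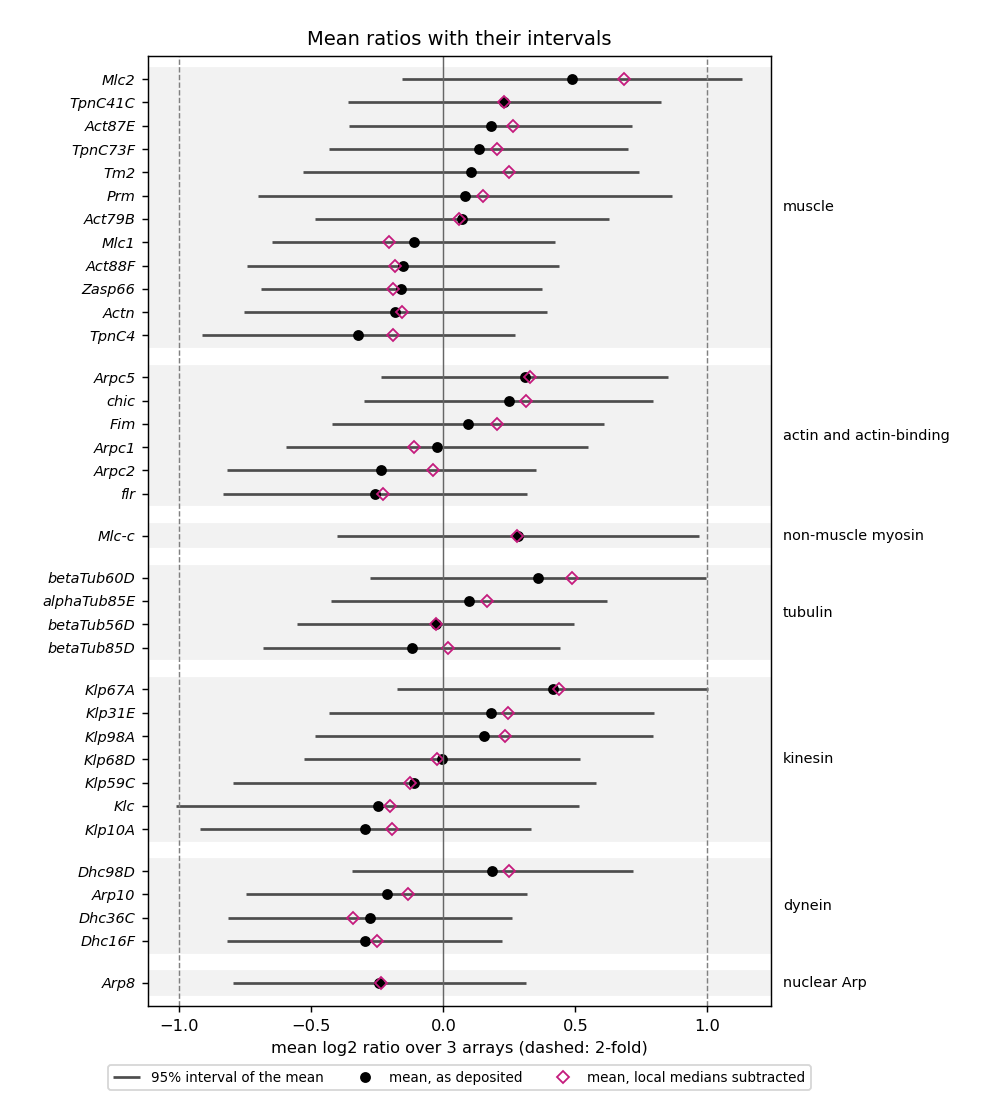
Mean log2 ratio over 3 arrays (horizontal axis) of each gene as a black point with its 95% interval, and the mean after subtraction of local medians as an open diamond. Every interval spans 0, and those of Mlc2, Klc and Klp67A reach past the dashed lines at a 2-fold change.

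Partners of these fibres and motors, outside the rule, were drawn from a list of 139 symbols, of which 45 were measured. Of the 45, 0 passed limma's test, with adjusted p from 0.853 to 0.995, and 1 was under an unadjusted p of 0.05, where 3.49% of all named genes were. Their means were above 0 for 14 and below for 31, with a median of −0.11, and 3 were above and 12 below on all 3 arrays. Of all named genes 43.0% had a mean above 0, the median was −0.0477, and 12.5% were above and 16.9% below on all 3 arrays. The gene under that p was alpha-Spec, which encodes the alpha chain of spectrin in the membrane skeleton, at 3.26, −0.12 and 1.10. A single spot at 6.79 on array 1, beside its partner at −0.28, set its mean of 1.41 ± 1.71 (SD, n = 3).

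The dynein and kinesin partners held 1 mean of 9 above 0, with a median of −0.13, and 2 of 9 with local medians subtracted. The gene nudE, whose product binds dynein together with Lis-1, stood at −0.84, −0.52 and −0.30, all below 0, with a mean of −0.55 ± 0.27 (SD, n = 3) and a limma adjusted p of 0.853. The dynactin gene DCTN1-p150 and the dynein light intermediate chain gene Dlic followed with means of −0.27 and −0.24. The 15 microtubule-binding genes, with a median of −0.0981, held Tbce, a tubulin folding cofactor, at −0.62 ± 1.21 (SD, n = 3), which rested on −2.00 on array 3. Next came the spindle midzone gene feo at −0.52 and the microtubule-severing gene spas at −0.51, both below 0 on all 3 arrays.

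Among 6 spectrin and septin genes, Septin2 stood at −1.04, −0.57 and −0.11, with a mean of −0.58 ± 0.47 (SD, n = 3), and Septin5 at −0.21, −0.35 and −0.67, with a mean of −0.41 ± 0.23 (SD, n = 3). Septins assemble into filaments at the cell cortex, and both genes were below 0 on all 3 arrays. The 12 actin regulators had a median of −0.12, with the actin nucleator gene capu at −0.43 and the Merlin gene Mer at −0.33. Of 16 further symbols listed for muscle 3 were measured, at −0.15 for tn, −0.0837 for kon and 0.05 for the capping protein gene cpa. Of 16 unconventional myosin symbols 0 were measured.

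The pilot array held 19 genes that fit the rule, 14 of them also members on the 12k design. Its dyes were reversed and the direction of its ratio is not settled, so each value below may stand with the opposite sign. Values are differences from the median of that array, 0.40, and 1 array gives no error between replicates. The filamin gene cher, whose product crosslinks actin at the membrane, lay farthest from that median, at 1.42, with its spots 0.11 apart. TpnC73F followed at 1.28, with spots 0.06 apart, beside a 12k mean of 0.13. On the other side Mlc-c stood at −0.69 and the tubulin gene betaTub65B at −0.58.

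The other genes were closer to the pilot's median. The troponin T gene up stood at 0.40, alphaTub85E at 0.52 and alphaTub84D at 0.51, while gammaTub37C was at −0.40 and Klp10A at −0.45. Over the 19 genes 9 were above the median of the array and the middle value was −0.0275. Of the 14 genes on both designs, 8 had the sign of their 12k mean as deposited and 6 with the pilot turned.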

How the data were processed

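Whole-fly RNA was compared on 2-colour arrays, 3 of the 12k design and 1 pilot. The deposited log2 ratios come from data that the authors had normalized, per the labels. How images were read, corrected for background, normalized and filtered is not given in the sources used here. Channel intensities were not used here. Of 27648 spots, 15116 had 1 symbol in the platform annotation, 102 several and 12430 none. Of the named spots, 14894 were found in the RefSeq table and took their symbol from it, whether or not it differed. Spots of a gene were averaged and unnamed spots kept singly, which gave 19325 features. The mean of each was tested in limma (version 3.58.1, R version 4.3.3) by lmFit and eBayes, against a ratio of 0 on the log scale. The test was two-sided, adjusted over all features by Benjamini-Hochberg, and had 2 residual and 4.99 prior degrees of freedom. The number of arrays limits the precision. Local medians used up to 50 spots on either side in the order of spot numbers, since no print layout was used. Named in detail were Mlc2, Mlc-c, cher, the 3 members of each role with the largest absolute mean, and of the partners the 3 largest per list and any under an unadjusted p of 0.05, of which 1 gene is not reported here. The members, roles and lists were chosen with earlier results of these data known. Alternatives covered averaging, centring, scaling, local medians, symbols and left-out arrays. No sequences are shown.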

Additional observations from a re-analysis of the deposited data

How the results depend on the processing

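The count of members, of partner genes and of all features past the limma test was 0 under each alternative run, and the smallest adjusted p over all features was 0.184 when unnamed spots were left out and 1.00 when a fold of 1.2 was the null. Of 19325 features, 924 or 4.78% were under an unadjusted p of 0.05. This became 387 of 6793, or 5.70%, when unnamed spots were left out, 335 with the fold of 1.2, 1323 of 27648 with each spot a feature, 1137 with local medians subtracted, and 597 to 1208 when each replicate was left out, the lowest without replicate 3. The 0 members under that limma p became 1 of 35, Mlc2, without replicate 2, the array on which Mlc2 was below 0. In that setting 6.25% of all features were under the same p. The median of the members, −0.0062, lay between −0.0193 and 0.0425 over the alternatives, and the muscle minus general difference, 0.09, between −0.0406 and 0.108. Both shifted from the main value by less than the SD of their values on single arrays. That SD is not the error of a value taken from gene means. Among 17 genes named in detail the mean turned for Klc, which ranged from −0.48 to 0.19 as each replicate was left out, for Mlc-c, from −0.0028 to 0.61, and for betaTub85D, from −0.26 to 0.0408, and at 0.0170 with local medians subtracted. Leaving out members with discordant spots was chosen after seeing the data. The test is itself paired, since each ratio compares a biological pair within its array. No paired analysis was possible beyond that, because no 2 groups of arrays share replicates. Without intensities, no spot could be judged against background.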
